A study of Mus musculus with 8 samples.

Results

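Protein tyrosine phosphatases were compared between L-GMPs, progenitors sorted from leukaemic mice, and GMPs, the granulocyte-macrophage progenitors of normal mouse bone marrow. The genes were chosen by symbol alone, as those named Ptpn with a digit (cytosolic enzymes) or Ptpr with a letter (receptor type enzymes), read from probe sets with a single gene symbol. This gave 35 genes of 18193 on the array, 16 Ptpn and 19 Ptpr, read by 87 probe sets. Each gene was represented by its probe set with the highest mean log2 intensity over all 8 arrays. The symbol rule also takes in Ptprcap, which encodes a transmembrane partner of CD45 and has no phosphatase domain.

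All 8 RNA samples came from bone marrow cells of the GMP gate, sorted by flow cytometry, with 4 arrays per group and replicates lettered A to D. The leukaemic samples carry the genotype label HoxA9+Meis1 AML, an acute myeloid leukaemia named for the homeobox factors HOXA9 and MEIS1, and the others the label Normal. How the leukaemia was made, and the strain and age of the mice, are not given in the sources used here. No label ties the arrays of a group to different mice. The p-values therefore measure the spread between these samples alone, which may be technical.

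Tyrosine phosphatases remove phosphate from tyrosine residues and so oppose or tune tyrosine kinases. In blood cells CD45 (Ptprc) keeps SRC family kinases ready for activation, SHP-1 (Ptpn6) ends signals from cytokine and inhibitory receptors, and SHP-2 (Ptpn11) promotes RAS signalling and is mutated in some childhood myeloid leukaemias. Receptor type members carry an extracellular part that contacts other cells or matrix, whereas cytosolic members are steered by their own targeting domains.

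Values are log2 of RMA intensities, so a difference of 1 is a 2-fold change. They compare a probe set between arrays and do not rank genes against each other. The lower quartile of all probe sets was 3.65 to 3.75 per array and their median 5.24 to 5.49. A group mean below the lower quartile of every array in that group is called dim here, and the size of a change that reaches it is uncertain. A gene was called changed where limma's moderated test gave an adjusted p under 0.05 (Benjamini-Hochberg over all 18193 genes).

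Replicate B of the L-GMPs and replicates A and D of the GMPs each stood apart on some measure. The second principal component, with 11.4% of the variance, placed L-GMP replicate B away from the rest of its group. The third component, with 8.79%, gave GMP replicate A a score of -0.77, against 0.17 to 0.28 for the other GMP arrays. GMP replicate D had a Gapdh 3' minus 5' log2 signal of 2.74, against 1.24 to 1.76 on the other 7 arrays. None of the 8 measured markers of the GMP gate and of myeloid progenitors was dim in either group, and 4 of them were lower in L-GMPs. Marker lists of other cell types differed between the groups: 7 of 10 monocyte and macrophage markers were higher in L-GMPs and 1 was lower, with summed intensities of 10843 to 14989 in L-GMPs and 5332 to 6059 in GMPs. Of 10 eosinophil, basophil and mast cell markers 9 were lower (524 to 1323 against 4077 to 10793), with Fcer1a and Il5ra dim in L-GMPs. Of 9 stem cell and multipotent progenitor markers 8 were lower (187 to 311 against 1258 to 1576), with Mecom, Tek and Prom1 dim in L-GMPs. Megakaryocyte markers were lower in 4 of 7 (185 to 257 against 475 to 2028), with Rab27b and Ppbp dim in L-GMPs. Of 9 mature neutrophil markers 2 were lower (378 to 1627 against 899 to 4326), and of 6 erythroid markers 1 was lower (965 to 1266 against 1337 to 1644), which was Car1, dim in L-GMPs. Of 9 endothelial and stromal markers 2 were lower (289 to 439 against 298 to 450), with Cdh5, Kdr, Emcn and Tek dim in L-GMPs and Cdh5 and Kdr also in GMPs. For 8 B lymphoid markers and 7 T and NK markers 0 genes passed limma's threshold, with 1 B lymphoid marker (higher) and 0 T and NK markers at an unadjusted p under 0.05. Ms4a1, Blnk and Ncr1 were dim in both groups and Cd3g in GMPs. Their summed intensities were 473 to 810 in L-GMPs against 476 to 557 in GMPs and 176 to 195 against 171 to 175. The part of such cells in the results was not tested, and in sorted bulk samples fewer cells of a type and less RNA per cell cannot be told apart.

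Of the 35 genes, 3 were higher and 4 lower in L-GMPs, which is 20.0% called where 12.1% of all genes were called (4.78% higher and 7.27% lower). The genes that fell were Ptpn12, Ptpn3, Ptprr and Ptprcap, and those that rose were Ptpra, Ptpre and Ptprf. The falls were the larger changes: they measured 0.91 to 2.36 on the log2 scale and the rises 0.42 to 0.50. The groups did not overlap in 9 of the 35 genes (25.7%), against 18.2% of all genes. They were higher in L-GMPs in 4 (8.53% of all genes) and lower in 5 (9.71% of all genes). The median difference was 0.07, against 0.01 over all genes, and the median size of the difference was 0.25, against 0.17. In 29 of the 35 genes the difference was smaller than 0.5 in size, as it was in 15880 of all 18193 genes. Without Ptprcap, 6 of 34 genes were called (17.6%) and the groups did not overlap in 8 (23.5%). Differences between the shares of the family and of all genes were not tested.

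**Figure D1:**
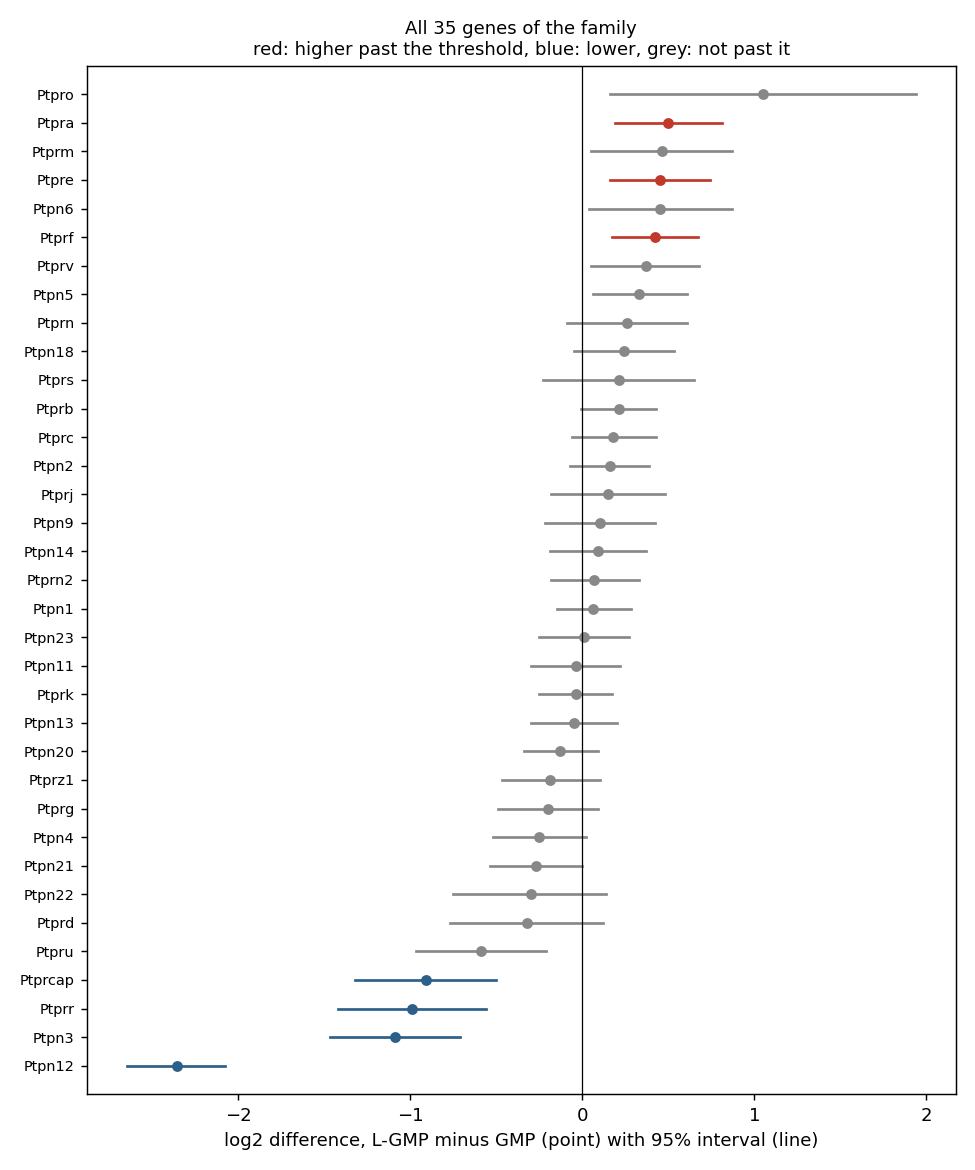
Log2 difference of L-GMP minus GMP (horizontal axis) for each of the 35 genes (vertical axis), with the 95% interval of limma's fit over 4 arrays per group. Ptpn12, at -2.36, lies apart from all other members, whose differences run from -1.09 to 1.05.

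Ptpn12 encodes PTP-PEST, a cytosolic phosphatase with a proline-rich tail that acts on the adaptor p130CAS, on focal adhesion kinases and on regulators of the actin skeleton. It had the largest change of the family, a 5.14-fold fall. Its log2 intensity was 5.59, 5.70, 5.55 and 5.74 in L-GMP replicates A to D and 7.88, 8.0, 7.80 and 8.35 in GMP replicates A to D. The L-GMP arrays lay within 0.19 of each other and 2.06 below the lowest GMP array. It fell by 2.36 (SE 0.13, 95% interval -2.65 to -2.08, limma adjusted p = 8.11e-07). Among the differences of all genes it took rank 127 from the most negative. GMP replicate D had the highest value, and without that array the fall was 2.25 (adjusted p = 2.5e-06).

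The other 3 probe sets of Ptpn12 fell further, with L-GMP means of 3.26, 2.83 and 2.73. The first of them read 3.10, 4.18, 3.05 and 2.71 in L-GMPs and 7.57, 7.91, 7.73 and 8.50 in GMPs, a difference of -4.66 (SE 0.30, adjusted p = 4.87e-06 over all probe sets). The second read 2.24, 3.54, 2.71 and 2.84 against 6.75, 7.43, 7.04 and 7.68, a difference of -4.40 (SE 0.27). The third read 2.74, 2.84, 2.85 and 2.49 against 6.13, 6.98, 6.46 and 7.30, a difference of -3.98 (SE 0.23). All 3 were dim in L-GMPs, though replicate B of the first lay above the lower quartile, so these sizes are uncertain, whereas the chosen probe set was not dim in either group. In each of the 4 probe sets GMP replicate D was the highest GMP array, and the groups were far apart in all of them. The mean of the 4 probe sets fell by 3.85.

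**Figure D2:**
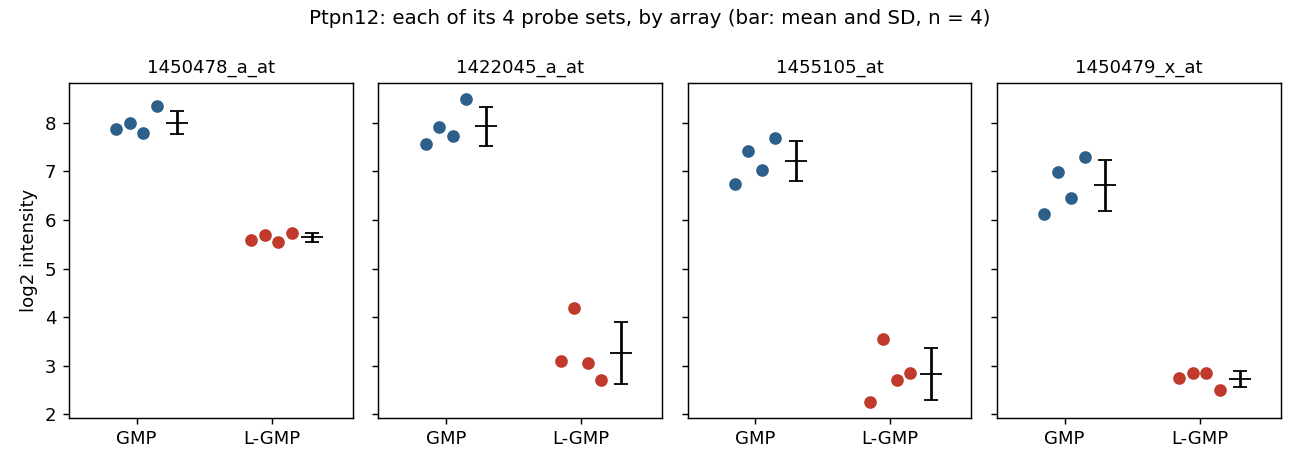
Log2 intensity (vertical axis) of the 4 Ptpn12 probe sets in GMP and L-GMP arrays, 1 point per array, with mean and SD (n = 4). Every L-GMP array lies below every GMP array in each panel, and heights are comparable within a panel only.

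The other PEST type phosphatases did not pass the threshold. Ptpn22, a lymphoid and myeloid phosphatase that binds CSK and is a known autoimmunity gene, read 7.30, 7.46, 7.27 and 6.49 in L-GMPs and 7.23, 7.55, 7.31 and 7.66 in GMPs. L-GMP replicate D was the low array and the groups overlapped, with a difference of -0.30 (95% interval -0.75 to 0.14, limma adjusted p = 0.375). Ptpn18 had a difference of 0.24 (95% interval -0.05 to 0.53, adjusted p = 0.287), with L-GMPs at 9.20 to 9.49 and GMPs at 8.85 to 9.40.

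Ptpn3 encodes PTPH1, a cytosolic phosphatase with FERM and PDZ domains that binds membrane proteins. It read 3.45, 3.88, 3.58 and 3.45 in L-GMPs and 4.41, 4.76, 4.43 and 5.13 in GMPs, and the groups did not overlap. It fell by 1.09 (SE 0.17, 2.13-fold, limma adjusted p = 0.00221). The L-GMP mean of 3.59 was dim and the GMP mean of 4.68 lay below the median of every array, so the gene was weakly measured and the size of its fall is uncertain. Without GMP replicate D the fall was 0.94 (adjusted p = 0.00441). The other FERM or PDZ domain members, Ptpn4, Ptpn13, Ptpn14 and Ptpn21, had differences of -0.27 to 0.09, none called. A second probe set of Ptpn21 fell by 0.57 (SE 0.11, adjusted p = 0.0104 over all probe sets) and one of Ptpn14 rose by 0.50 (adjusted p = 0.0458). That Ptpn14 probe set was dim in GMPs (mean 3.48), so the size of its rise is uncertain. The chosen Ptpn21 and Ptpn14 probe sets had differences of -0.27 and 0.09. The mean of the Ptpn21 probe sets fell by 0.36 (adjusted p = 0.0273).

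Ptprr and Ptpn5 encode phosphatases that dock on MAP kinases such as ERK. Ptprr read 3.76, 3.76, 4.12 and 4.24 in L-GMPs and 5.0, 4.80, 4.55 and 5.47 in GMPs. The highest L-GMP array lay below the lowest GMP array. It fell by 0.99 (SE 0.19, 1.98-fold, limma adjusted p = 0.00803), and without GMP replicate D, its highest array, by 0.82 (adjusted p = 0.0165). Both group means of Ptprr (3.97 and 4.95) lay below the median of every array. Ptpn5 had a difference of 0.33 (SE 0.12, adjusted p = 0.113), with L-GMPs at 5.59 to 6.03 and GMPs at 5.46 to 5.74. The Ptpn5 difference passed without L-GMP replicate C (0.43, adjusted p = 0.0403), and also after centring each array on its median (0.47), after quantile normalization (0.49) and with array weights (0.37).

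CD45 and its partner differed in their results. Ptprc, which encodes CD45, read 10.83, 10.61, 10.94 and 10.88 in L-GMPs and 10.53, 10.74, 10.51 and 10.75 in GMPs. These values overlapped, and the difference of 0.18 was not called (95% interval -0.06 to 0.43, limma adjusted p = 0.335). A second Ptprc probe set had a difference of 0.47 (SE 0.18, adjusted p = 0.131 over all probe sets). Ptprcap, the CD45-associated protein of lymphoid and other blood cells, read 6.51, 7.42, 7.03 and 6.71 in L-GMPs and 8.05, 7.80, 7.84 and 7.62 in GMPs. Its groups did not overlap, and L-GMP replicate B lay nearest to the GMPs. Ptprcap fell by 0.91 (SE 0.18, 1.88-fold, adjusted p = 0.00955), and by 1.15 with L-GMP replicate B left out as well as GMP replicate D (adjusted p = 0.00221). Whether Ptprcap and Ptprc changed differently was not tested.

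**Figure D3:**
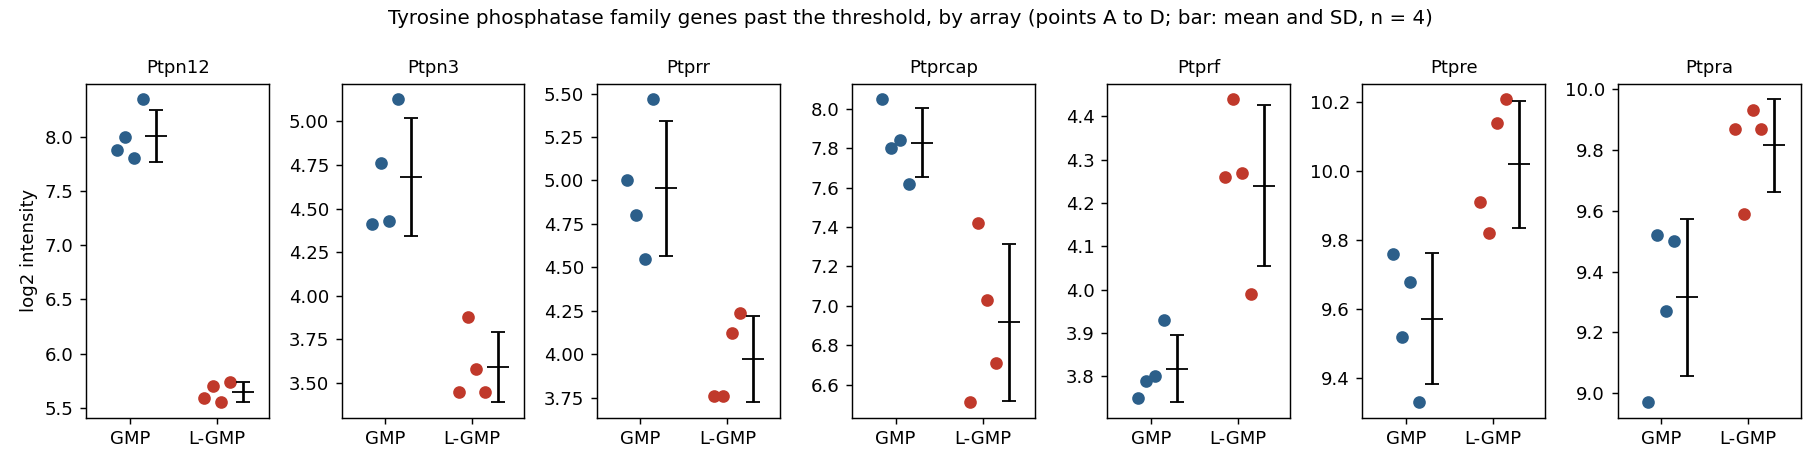
Log2 intensity (vertical axis, scaled separately in each panel and not starting at 0) of the 7 genes past the threshold in GMP and L-GMP arrays, 1 point per array in the order A to D, with mean and SD (n = 4). The groups do not overlap in any of the 7 panels, and the gap is widest for Ptpn12.

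Ptpra and Ptpre are closely related receptor type phosphatases with short, glycosylated extracellular parts, and Ptpra is known to activate SRC by removing its inhibitory phosphate. Ptpra read 9.87, 9.59, 9.93 and 9.87 in L-GMPs and 8.97, 9.52, 9.27 and 9.50 in GMPs. L-GMP replicate B was only 0.07 above the highest GMP array. Ptpra rose by 0.50 (SE 0.14, 1.41-fold, limma adjusted p = 0.0441), and its second probe set had a difference of 0.79 (SE 0.23, adjusted p = 0.0539 over all probe sets). Ptpre read 9.91, 9.82, 10.14 and 10.21 in L-GMPs and 9.76, 9.52, 9.68 and 9.33 in GMPs, again without overlap and with a gap of 0.06. Ptpre rose by 0.45 (SE 0.13, 1.37-fold, adjusted p = 0.0489), and its second probe set had a difference of 0.23 (adjusted p = 0.268 over all probe sets). Neither call was firm. Among single arrays left out, Ptpra kept it only without L-GMP replicate B (adjusted p otherwise 0.0521 to 0.107). Ptpre kept it only without L-GMP replicate B or GMP replicate A (otherwise 0.0736 to 0.13).

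The promoters of this pair are shown because its members rose together, and that of Ptpn3 because it fell and has a single listed start. Each window spans 250 bases before to 50 after a transcript start, from RefSeq on GRCm38.p6, and 29 of the 35 genes had a window used here. Capitals mark the core motif of MEIS factors, TGACAG or its reverse CTGTCA. Ptpra lies at chr2:130450028-130450327 on the + strand, the third of 3 listed Ptpre starts at chr7:135605578-135605877 on the + strand, and Ptpn3 at chr4:57301788-57302087 on the - strand.
Ptpra: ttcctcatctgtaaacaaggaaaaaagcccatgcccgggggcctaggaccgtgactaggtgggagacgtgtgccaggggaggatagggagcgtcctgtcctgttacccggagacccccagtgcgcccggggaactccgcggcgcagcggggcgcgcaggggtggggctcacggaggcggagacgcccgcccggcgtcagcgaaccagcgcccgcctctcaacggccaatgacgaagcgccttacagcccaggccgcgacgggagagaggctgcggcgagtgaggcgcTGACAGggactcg
Ptpre: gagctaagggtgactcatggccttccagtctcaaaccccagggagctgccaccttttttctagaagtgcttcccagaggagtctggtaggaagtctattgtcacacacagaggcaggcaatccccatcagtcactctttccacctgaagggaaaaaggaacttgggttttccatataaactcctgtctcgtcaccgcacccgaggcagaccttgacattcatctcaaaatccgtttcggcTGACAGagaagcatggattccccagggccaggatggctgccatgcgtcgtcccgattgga
Ptpn3: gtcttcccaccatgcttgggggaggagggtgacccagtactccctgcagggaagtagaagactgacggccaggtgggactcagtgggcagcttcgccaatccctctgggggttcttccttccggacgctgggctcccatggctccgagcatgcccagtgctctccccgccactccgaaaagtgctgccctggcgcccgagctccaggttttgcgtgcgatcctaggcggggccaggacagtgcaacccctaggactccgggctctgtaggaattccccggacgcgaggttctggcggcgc
The motif begins at base 38 from the Ptpra start, with the start base counted as the first, and 10 bases before this Ptpre start. The second Ptpre window also holds it, and the Ptpn3 window does not. The first Ptpre window, not printed here, lacks it too and has 20 CG pairs, against 8 in the printed one. The printed windows therefore do not show how often the motif goes with a rise. Among the other called genes with windows, Ptprr, which fell, holds it in 2 of 4 windows, and Ptprf, which rose, does not hold it. These 2 Ptprr windows overlap and hold the same site, so it is counted in both. Over both strands the motif was found in 11 of 42 windows of the family (26.2%) and in 19.2% of 32851 windows of all genes. Overlapping windows were counted separately. The family's windows leave out a chromosome that the windows of all genes include, so the shares of every motif come from unlike sets. The HOX-PBX motif TGATTNAT was in 0 of the 42 family windows (3.22% of all windows), the PU.1 motif GAGGAAGT in 0 (3.20%) and the C/EBP motif TTGCNNAA in 2 (10.8%). These letter matches describe the windows and do not show binding.

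Ptprf, Ptprs and Ptprd encode LAR type receptors, which bind heparan sulfate proteoglycans and are best known at synapses. Ptprf read 4.26, 4.44, 4.27 and 3.99 in L-GMPs and 3.75, 3.79, 3.80 and 3.93 in GMPs. The gap between the groups was 0.06, and all 8 values lay below the median of their arrays. Ptprf rose by 0.42 (SE 0.11, 1.34-fold, limma adjusted p = 0.0361). Its other 2 probe sets had differences of 0.08 and -0.09, the mean of all 3 differed by 0.14 (adjusted p = 0.471), and the call was kept without L-GMP replicate D but lost without any other single array (adjusted p 0.057 to 0.0956). Ptprs ranged from 9.59 to 10.30 in L-GMPs and from 9.43 to 10.24 in GMPs in its brightest probe set, a difference of 0.21 (95% interval -0.23 to 0.65, adjusted p = 0.552). Another Ptprs probe set was higher in every L-GMP array (7.08 to 7.87 against 6.60 to 6.97) and rose by 0.65 (SE 0.17, adjusted p = 0.0382 over all probe sets). Ptprd had a difference of -0.32 (adjusted p = 0.341) and was dim in L-GMPs.

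The SH2 domain enzymes, which bind phosphorylated receptors directly, did not pass the threshold. Ptpn6 (SHP-1) read 10.20, 9.50, 10.28 and 9.51 in L-GMPs and 9.25, 9.46, 9.48 and 9.48 in GMPs. L-GMP replicates A and C were high, and the lower of the others lay only 0.02 above the highest GMP array. The difference was 0.45 (SE 0.19, 95% interval 0.04 to 0.87, limma adjusted p = 0.151), and a second probe set gave 0.42 (adjusted p = 0.156 over all probe sets). Ptpn11 (SHP-2) read 10.35, 10.31, 10.47 and 10.79 in L-GMPs and 10.43, 10.55, 10.58 and 10.52 in GMPs. Its difference of -0.04 had a 95% interval of -0.30 to 0.22 (adjusted p = 0.87), and its other probe sets gave 0.40 and -0.05, neither called.

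Ptpn1 (PTP1B) and Ptpn2 (TCPTP), which dephosphorylate JAK kinases and other signalling proteins, had narrow intervals around small differences. Ptpn1 ranged from 9.06 to 9.21 in L-GMPs and from 8.96 to 9.15 in GMPs, with a difference of 0.06 (95% interval -0.15 to 0.28, limma adjusted p = 0.724). Ptpn2 ranged from 9.97 to 10.10 against 9.70 to 10.02, a difference of 0.16 (95% interval -0.07 to 0.39, adjusted p = 0.37). The remaining cytosolic members Ptpn9, Ptpn20 and Ptpn23 had differences of -0.13 to 0.10, and Ptpn20 was dim in both groups. Of all 16 Ptpn genes limma called 2 lower (Ptpn12 and Ptpn3) and 0 higher, with 2 higher and 2 lower at an unadjusted p under 0.05. The called share of 12.5% was near the 12.1% of all genes.

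Ptpro, a receptor type phosphatase of podocytes, macrophages and B cells, had the largest positive difference and the widest spread of the family. It read 5.94, 4.83, 7.04 and 6.34 in L-GMPs and 4.41, 5.58, 4.86 and 5.09 in GMPs. L-GMP replicate B lay inside the GMP range, and the SD was 0.92 in L-GMPs and 0.49 in GMPs, against family medians of 0.19 and 0.18. The difference of 1.05 (SE 0.40, 95% interval 0.16 to 1.94) was not called (limma adjusted p = 0.125). Without L-GMP replicate B it was 1.45 (adjusted p = 0.01), and without that array and GMP replicate D 1.49 (adjusted p = 0.0268). The related Ptprv and Ptprm, a homophilic cell adhesion phosphatase, passed only without L-GMP replicate B among the arrays left out singly (0.47, adjusted p = 0.0455, and 0.61, adjusted p = 0.0366). With all arrays their differences were 0.37 and 0.46 (adjusted p 0.127 and 0.146). Ptprv also passed after median centring (0.51, adjusted p = 0.0285).

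Ptpru, another receptor of the homophilic MAM domain group, was lower in every L-GMP array. Its values were 6.50, 5.70, 6.46 and 6.24 in L-GMPs and 6.78, 6.64, 6.98 and 6.86 in GMPs. The difference of -0.59 (SE 0.17, 95% interval -0.97 to -0.21) just missed the threshold (limma adjusted p = 0.0506). Without L-GMP replicate A it was called (-0.68, adjusted p = 0.0452), and without the other single arrays it was not (adjusted p 0.0531 to 0.131). It was also called with dim genes filtered out (0.0451 and 0.0411), with a trended, robust prior (0.0487) and with the replicate letter as a block (0.0319). The second Ptpru probe set had a difference of -0.04. Ptprk, of the same group, ranged from 5.10 to 5.32 in L-GMPs and from 5.19 to 5.31 in GMPs, a difference of -0.04 (95% interval -0.25 to 0.17). Of the other receptor type genes, Ptprb, Ptprj, Ptprn and Ptprn2 had differences of 0.07 to 0.26. Among these, Ptprb passed the threshold only after median centring (0.35, limma adjusted p = 0.0418). The probe sets of Ptprj disagreed: the chosen one had a difference of 0.15 and the others -0.32, -0.22 and 0.18, none called. The mean of the Ptprj probe sets differed by -0.05. Ptprg and Ptprz1, at -0.20 and -0.19, were dim in both groups.

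Probe sets of a gene did not always share a direction. Of 25 genes with several probe sets, 12 had differences of both signs, though 0 had probe sets called in opposite directions by limma. Some of these lay around 0, as in Ptpn1 (-0.05 to 0.06) and Ptprn2 (-0.09 to 0.07), and others were wider, as in Ptpn2 (-0.34 to 0.17). The share of mixed signs over all genes was not computed. Of the 52 probe sets that were not chosen, 4 fell and 2 rose past the threshold over all probe sets, where 10.9% of 45037 probe sets were called (3.89% higher and 7.03% lower). Of these 6, 3 belonged to Ptpn12 and the others to Ptpn21, Ptpn14 and Ptprs.

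Genes that work with these phosphatases were read from 6 lists. Among 19 measured receptors that recruit SHP-1 or SHP-2, 4 rose and 3 fell (36.8% called, against 12.1% of all genes), with a median difference of 0.11 against 0.01 over all genes. Cd33, a myeloid lectin, rose by 1.14 (SE 0.23) and Milr1, an inhibitory receptor of mast cells, by 1.07 (SE 0.13), whereas the B cell receptor regulator Cd72 fell by 1.66 (SE 0.24) and Cd300a by 1.04 (SE 0.19). Btla, an inhibitory receptor of lymphocytes chosen after its values were seen, read 10.78, 6.85, 10.54 and 10.19 in L-GMPs and 7.27, 7.77, 7.0 and 7.42 in GMPs. L-GMP replicate B lay below all GMP arrays and the other 3 L-GMP arrays far above them. Its difference of 2.22 was not called (limma adjusted p = 0.0702), and without L-GMP replicate B it was 3.14 (adjusted p = 3.06e-06).

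Among 16 measured SRC, SYK and TEC family kinases with CSK, its adaptor and CBL proteins, 1 rose and 2 fell (18.8% called, against 12.1% of all genes, median 0.13). Fyn, a SRC family kinase, read 4.92, 5.39, 5.29 and 4.99 in L-GMPs and 7.15, 7.05, 6.69 and 6.96 in GMPs, and fell by 1.82 (SE 0.14, 3.52-fold, limma adjusted p = 1.55e-05). The ubiquitin ligase gene Cblb fell by 0.99 (SE 0.10), or by 0.57 as the mean of its probe sets, and the TEC family kinase gene Bmx rose by 1.52 (SE 0.20). Of 17 scaffolds and adaptors of SHP-2 and RAS signalling, 2 rose and 2 fell (23.5% called, against 12.1%, median 0.04). The adaptor genes Lat2 and Dok3 rose by 1.81 (SE 0.14) and 1.05 (SE 0.15), Lat2 by 0.71 as the mean of its probe sets, while Lat fell by 0.72 and Gab1, a docking protein of SHP-2, by 0.54. As the mean of its probe sets Gab1 fell by 0.86. Omitting L-GMP replicate A, L-GMP replicate C, GMP replicate B or GMP replicate D each ended the Gab1 call (adjusted p 0.0505 to 0.0541). Lat lost its call after quantile normalization (adjusted p = 0.0517).

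Of 10 measured partners and substrates of PEST type enzymes, limma called 0, with 1 higher and 1 lower at an unadjusted p under 0.05. The largest difference among them was in Bcar1, which encodes p130CAS, the best known substrate of PTP-PEST. It read 6.62, 7.24, 6.96 and 6.69 in L-GMPs and 6.55, 6.50, 6.07 and 6.34 in GMPs, higher in every L-GMP array by a small gap, and the difference of 0.51 was not called (SE 0.16, adjusted p = 0.0609). It passed after median centring (0.65, adjusted p = 0.0222) and quantile normalization (0.60, adjusted p = 0.0316), and with the dimmest 50% of genes removed (adjusted p = 0.0479). The list's median was -0.01.

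Of 39 other tyrosine and dual-specificity phosphatases, 4 rose and 3 fell (17.9% called, against 12.1% of all genes, median 0.12). Dusp6, an ERK phosphatase, rose by 1.35 (SE 0.34) and Dusp1, a stress-induced MAP kinase phosphatase, by 1.06 (SE 0.28), whereas Dusp16 fell by 1.48 (SE 0.18) and the cell cycle phosphatase gene Cdc25a by 0.50 (SE 0.12). As the mean of its probe sets Dusp16 fell by 0.70 (limma adjusted p = 0.0123). Dusp6, Dusp1 and Cdc25a lost their calls without some single arrays, and Dusp6 and Dusp1 also with a trended, robust prior (0.0524 and 0.0699). Cdc25a lost its call as well after median centring (0.0773), as the mean of probe sets (a difference of -0.30, 0.0813) and with the replicate letter as a block (0.0663). Dusp6 depended on GMP replicates A, B and C and on L-GMP replicate C (adjusted p 0.0563 to 0.0774 without one of them). Dusp1 depended on GMP replicates B and C and on L-GMP replicates A, C and D (0.0592 to 0.0898). Cdc25a depended on GMP replicates B and D and on L-GMP replicates A and D (0.0551 to 0.0702). Of 19 reported ligands of receptor type members, 2 rose and 3 fell (26.3% called, against 12.1%, median 0.12). The heparan sulfate proteoglycan genes Sdc2, Gpc4 and Agrn fell by 1.84 (SE 0.20), 1.29 (SE 0.18) and 1.14 (SE 0.14), and Lgals3, a galectin that binds CD45, rose by 1.47 (SE 0.23). As the mean of its probe sets Sdc2 fell by 1.20. The proteoglycan genes did not move one way: Gpc1, which was singled out once its values were known, rose by 1.09 (SE 0.14, limma adjusted p = 0.000517), and Sdc1, Sdc4 and Hspg2 were not called.

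**Figure D4:**
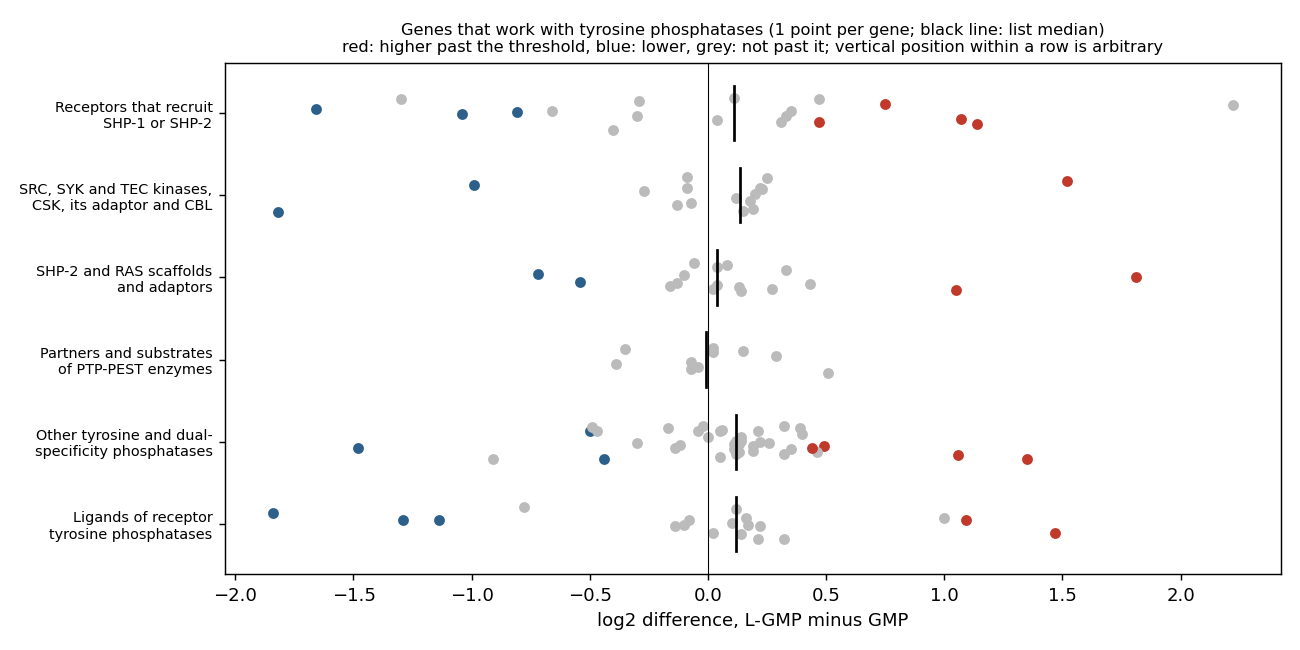
Log2 difference of L-GMP minus GMP (horizontal axis) for each measured gene of the 6 lists (rows), with the list median as a black line. Points past the threshold lie on both sides of 0 in 5 of the lists, and the list of partners and substrates of PEST type enzymes has none.

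Across 18 alternative settings the 4 falls differed from the 3 rises. Ptpn12, Ptpn3, Ptprr and Ptprcap were called lower in every setting that gave them a value, and the fall of Ptpn12 ranged from 2.22 to 3.85 (adjusted p at most 2.03e-05). Ptpra was called in 8 settings, Ptpre in 7 and Ptprf in 6 of the 16 that gave it a value. A further 7 genes passed in at least 1 setting and 21 in none. Centring each array on its median moved the median difference of all genes from 0.01 to 0.15 and the share of called genes that were higher from 39.7% to 70.1% (49.5% after quantile normalization). It gave 6 rises and 4 falls in the family.

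**Figure D5:**
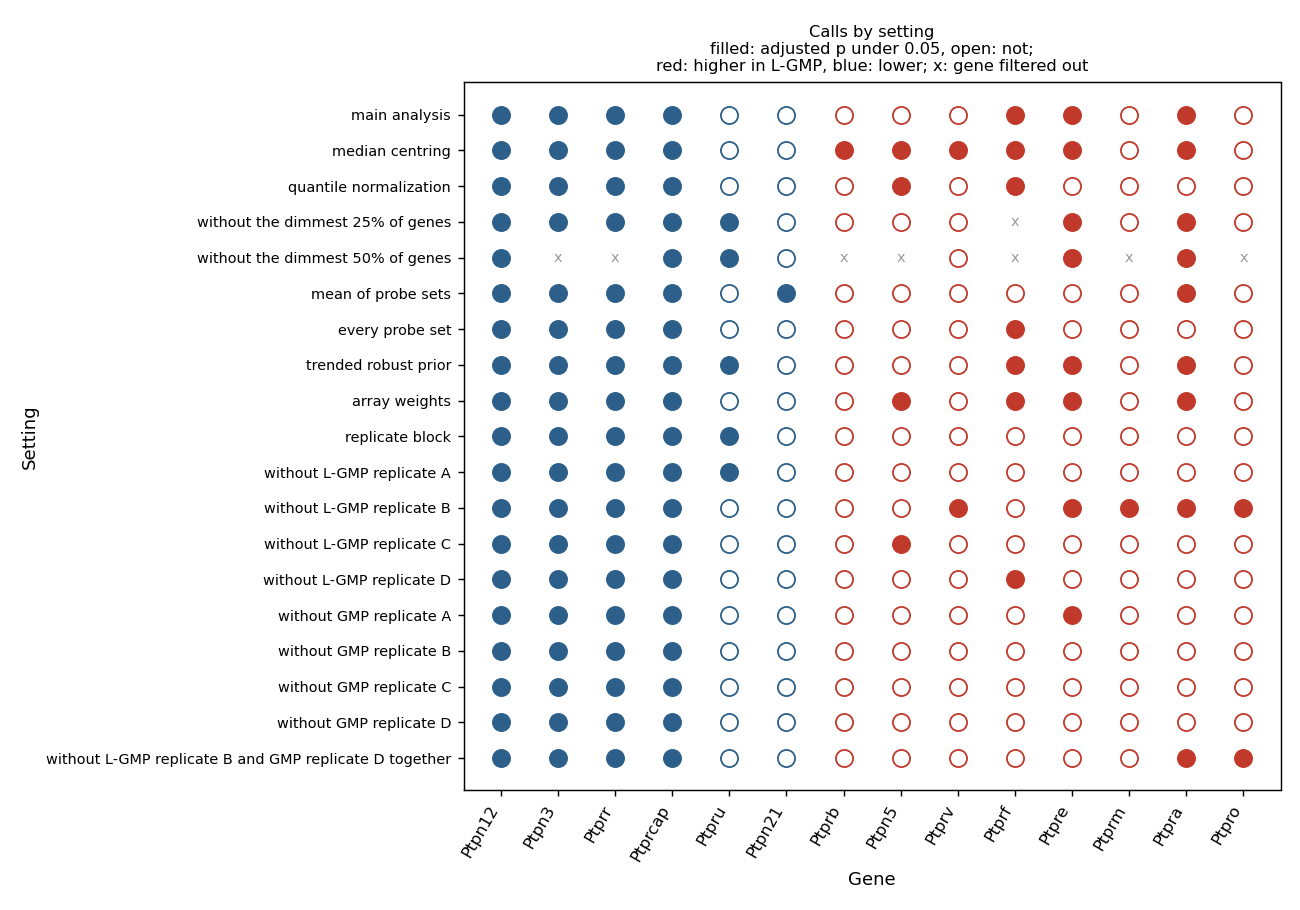
Calls of the 14 genes (horizontal axis) that passed the threshold in the main analysis or in any alternative, for each setting (vertical axis). The columns of Ptpn12, Ptpn3, Ptprr and Ptprcap are filled wherever a value exists, and the columns of the rises are filled in some settings only.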

How the data were processed

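Log2 was taken of the deposited intensities, which run from 3.54 to 29746.73 on a linear scale. Per the submitters' processing notes, the authors made these intensity values with RMA, with no version given in the sources used here. The method corrects background, normalizes and combines the probes of a set, yet the deposited array medians differed (5.24 to 5.49). The labels name a whole-transcript labelling assay, whereas Gapdh has 3' and 5' control probe sets as on a 3' array. This conflict was not settled and limits what the 3' minus 5' signal means. Of 45101 probe sets, 64 controls were left out. Of the rest, 34945 had 1 gene symbol in the platform annotation, 932 several and 9160 none, which left 18193 genes. There were no detection calls, and precision rests on the small number of arrays.

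The difference of L-GMP minus GMP was fitted in R 4.3.3 with limma 3.58.1 (lmFit, eBayes), with group as the only term and 2-sided tests, Benjamini-Hochberg adjusted over all genes at 0.05. Values given "over all probe sets" come from the same fit on 45037 probe sets. In simulated data for this comparison over 18193 genes the fit called 87% of genes given a log2 change of 1 and 98% of those given 2. It also called 9 unchanged genes. The simulation drew independent normal noise and changed only 100 genes at each size, so these rates may not carry over to the real arrays.

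The members, lists, tests and alternatives were chosen with earlier results of these data known. All members were accounted for, and those past the threshold, or of known myeloid roles, or whose call changed with a setting, were described singly. Of each list up to 4 called genes with the largest changes were named, or the largest difference where none was called.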

Additional observations from a re-analysis of the deposited data

Results flagged for a closer look

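The check covered 110 groups of 4 arrays, those of the 35 family genes and of the genes named by rule from the lists. Of these groups 5 held an array far from the other 3, where chance gives about 5% of groups. Ptpn14 was 4.45 in L-GMP replicate B against 4.03 to 4.10 on the other L-GMP arrays. Ptpn6 was 9.25 in GMP replicate A against 9.46 to 9.48. Cd33 was 5.30 in GMP replicate A against 4.79 to 4.87. Dusp16 was 3.30 in L-GMP replicate A against 3.94 to 3.99, and Sdc2 was 6.59 in GMP replicate C against 5.63 to 5.78. Btla, chosen after its values were seen and so left out of that count, was 6.85 in L-GMP replicate B against 10.19 to 10.78.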

How the results depend on the processing

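The count of family genes called lower, Ptprcap included, was 3 to 5 over all alternatives, against 4. The count called higher, 3 in the main analysis, was 6 after median centring, 1 in the mean of probe sets, 1 with every probe set tested and 0 with the replicate letter as a block in limma's fit (7 had an unadjusted p under 0.05). The cause was not tested. Leaving out each array in turn gave 0 to 5 rises (4 to 8 at an unadjusted p under 0.05), 4 to 5 falls and 1411 to 2388 called genes in all, against 2193. The 5 rises came without L-GMP replicate B. There were 0 without GMP replicate B, C or D and also 0 without L-GMP replicate A, and 1 without each of the others. The lowest counts of all genes came without GMP replicate B (1411) and GMP replicate D (1425). Omitting L-GMP replicate B with GMP replicate D, an alternative chosen after seeing the data, gave 2 rises and 4 falls. The replicate letters showed no clear pairing of the arrays. Deviations of same-lettered arrays correlated at -0.067 to 0.112 and those of other-lettered arrays at -0.118 to 0.106. Only 2 of 8 arrays correlated best with their own letter. With 4 arrays per group these values cannot exclude a pairing. With the block limma called 1760 genes, 5 of them family genes that fell, Ptpru and Ptprcap among them. Filters on dim genes left 27 and 19 of the 35 members. No called difference changed sign in any setting. Signal near the floor limits Ptpn3, Ptprr, Ptprf, the dimmer Ptpn12 probe sets and the Ptpn14 probe set that rose.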
